A study of Mus musculus with 9 samples.

Results

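Cirbp and Rbm3, which encode RNA-binding proteins induced by mild cold, and 8 genes of heat shock proteins were measured in the mouse aortic arch, the curved first stretch of the aorta. The 10 genes were chosen by name as groups that respond to temperature in opposite ways, and Cirbp was singled out because its level had been seen to follow that of the clock genes in these same libraries. They are 10 of the 21989 genes in the deposited table. Of these 10, 8 reached the level set for testing, at least 1 FPKM in at least 3 libraries, as did 12895 genes in all. FPKM counts the sequenced fragments of a gene and corrects for the gene's length and the library's depth. The values of Cirbp are therefore given as a description, with no test, and the 2 genes that missed that level, Hspa1a and Hspa1b, are described from their fragments.

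Each of 3 groups had 3 libraries. The control group was C57BL/6J mice given standard diet. The model group was ApoE-/- mice kept for 15 weeks on high-fat food. The high dose group was ApoE-/- mice on that food that also received ZCL, the preparation under study, at 5.12 g/kg/day by gavage over 15 weeks. ApoE is a lipoprotein ligand that helps to clear remnant particles from the blood, and mice without it develop plaque in the aortic arch. Genotype and diet differ together between control and model, so their effects cannot be told apart. The sources used here give neither the age of the animals nor the hour of tissue collection. They do not say whether replicate libraries are separate mice or pools, so a p-value below refers to the spread among these libraries, part of which may be technical.

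Heat shock proteins are chaperones. The HSP70 family (Hspa genes) holds unfolded proteins, J proteins such as Dnajb1 pass clients to it, and HSP110 proteins such as Hsph1 reset it by exchanging its nucleotide. When unfolded protein accumulates, heat shock factor 1 forms trimers that bind inverted repeats of nGAAn upstream of these genes. CIRBP and RBM3 are small glycine-rich proteins that bind messenger RNA, and their transcripts rise when body or culture temperature falls slightly. In mouse tissues Cirbp messenger RNA also follows the daily rhythm of body temperature, and CIRBP acts on transcripts of the circadian clock.

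Promoters of 4 of the genes are shown first, since Hspa1b and Hsph1 were higher and Cirbp was lower in the model libraries, while Hspe1, with the longest heat shock element, overlapped between groups. Sequences run from 250 bases before to 50 bases after the annotated start and are RefSeq's, build GRCm38.p6, which held 10 such windows for 7 of the 10 genes. Rbm3, Hspa8 and Hsp90aa1 were not matched. Capitals mark TCCCCGCC, known as a mild-cold response element, in Cirbp (chr10:80167589-80167888, plus strand). In Hspa1b (chr17:34959189-34959488, minus strand), Hsph1 (chr5:149636266-149636565, minus strand) and Hspe1 (chr1:55087898-55088197, plus strand) they mark the heat shock elements GAANNTTC and TTCNNGAA.
Cirbp: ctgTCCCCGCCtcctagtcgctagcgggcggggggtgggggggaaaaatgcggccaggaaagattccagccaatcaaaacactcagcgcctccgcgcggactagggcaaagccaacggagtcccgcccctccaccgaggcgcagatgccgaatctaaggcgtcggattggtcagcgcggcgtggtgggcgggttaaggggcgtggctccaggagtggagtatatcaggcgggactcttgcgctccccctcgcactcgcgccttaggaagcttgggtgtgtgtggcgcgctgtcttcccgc
Hspa1b: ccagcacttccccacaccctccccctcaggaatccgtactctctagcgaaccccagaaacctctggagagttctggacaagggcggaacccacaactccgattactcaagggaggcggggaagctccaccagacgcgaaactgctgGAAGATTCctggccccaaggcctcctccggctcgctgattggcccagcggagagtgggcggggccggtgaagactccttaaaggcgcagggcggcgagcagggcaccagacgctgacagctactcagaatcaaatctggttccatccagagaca
Hsph1: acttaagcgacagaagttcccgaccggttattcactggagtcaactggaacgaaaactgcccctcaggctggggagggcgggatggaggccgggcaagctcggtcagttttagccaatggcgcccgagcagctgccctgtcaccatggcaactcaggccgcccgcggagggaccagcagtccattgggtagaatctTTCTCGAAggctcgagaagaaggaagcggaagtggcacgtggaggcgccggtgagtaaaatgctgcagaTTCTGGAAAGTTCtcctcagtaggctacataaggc
Hspe1: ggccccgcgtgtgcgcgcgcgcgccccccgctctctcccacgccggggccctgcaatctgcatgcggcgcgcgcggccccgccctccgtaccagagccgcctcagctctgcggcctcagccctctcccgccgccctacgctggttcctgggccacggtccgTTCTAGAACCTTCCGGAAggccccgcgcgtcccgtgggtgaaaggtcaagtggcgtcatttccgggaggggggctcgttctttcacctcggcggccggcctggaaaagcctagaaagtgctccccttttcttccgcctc

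Both strands were searched. Of 32851 RefSeq promoters of this length, 7.86% held GAANNTTC, 8.52% held TTCNNGAA and 0.603% held both joined into 3 alternating units over 13 bases. Hspe1 had 3 alternating units from -89, and again from -84, relative to the start. Hsph1 had a TTCNNGAA at -54 and 3 units from 16 bases after the start, along with the E-box CACGTG at -19, a motif that 7.15% of promoters held. From the other annotated start of Hsph1, 21 bases further upstream, the same E-box lies at 3 bases after the start. Hspa1b and Hspa1a each had 1 GAANNTTC at -104, and their 300-base windows were identical at 296 positions. Hspb1 had GAANNTTC at -117 and at -97. Neither of the 2 windows of Dnajb1 held either 8-letter heat shock motif. TCCCCGCC lay at -247 in the Cirbp window shown, while the window of its other start (chr10:80167921-80168220) had none. It also lay on the opposite strand at -137 in Hspa1a and Hspa1b and at 35 bases after the second start of Dnajb1, and 5.38% of all promoters held it. These matches describe letters only.

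Cirbp (chromosome 10, 80165985 to 80172786, GRCm38) was lowest in the model group. Its level was 69.6, 68.4 and 38.8 FPKM in control, 29.1, 22.0 and 22.2 in model and 66.8, 88.0 and 85.1 in high dose. All 3 model libraries lay under all 6 others, and the control and high dose libraries overlapped. The means were 58.9 ± 17.4, 24.4 ± 4.01 and 79.9 ± 11.5 FPKM (SD, n = 3 each), 2.41-fold higher in control and 3.27-fold higher in high dose than in model. With only the 5 libraries low in heart muscle RNA, control 3, high dose 1 and the 3 of the model, the log2 difference from control to model was -0.66, against -1.20 with all 9. Behind these values stood 592 to 2263 fragments a library. Control 3, the lowest of the controls, was also the library with the most brown fat RNA, in which 6 brown adipocyte markers summed to 13693 FPKM against 1349 to 4821 in the other 8, and the part of that tissue in the Cirbp value was not tested. In bulk tissue, fewer cells of a type and less RNA per cell cannot be told apart.

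Rbm3 (chromosome X, 8138975 to 8145880), the closest relative of Cirbp among the 10, did not separate the groups. It measured 59.7, 75.7 and 46.7 FPKM in control, 66.8, 47.7 and 43.7 in model and 60.1, 49.7 and 54.3 in high dose. The 3 groups overlapped throughout, and the whole range was 1.73-fold. With limma on log2(FPKM + 1), the difference from control to model was -0.20 ± 0.252 (SE, adjusted p = 0.922), and from model to high dose 0.07 ± 0.252 (adjusted p = 0.918).

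Within a library the ratio of the cold-inducible pair does not depend on depth. Cirbp stood at 1.17, 0.903 and 0.832 times the FPKM of Rbm3 in control, at 0.435, 0.462 and 0.509 times in model and at 1.11, 1.77 and 1.57 times in high dose. The model ratios lay in a narrow band below every other library, control 3 included. Since Cirbp was chosen for its pattern, this ratio is a description too.

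**Figure D1:**
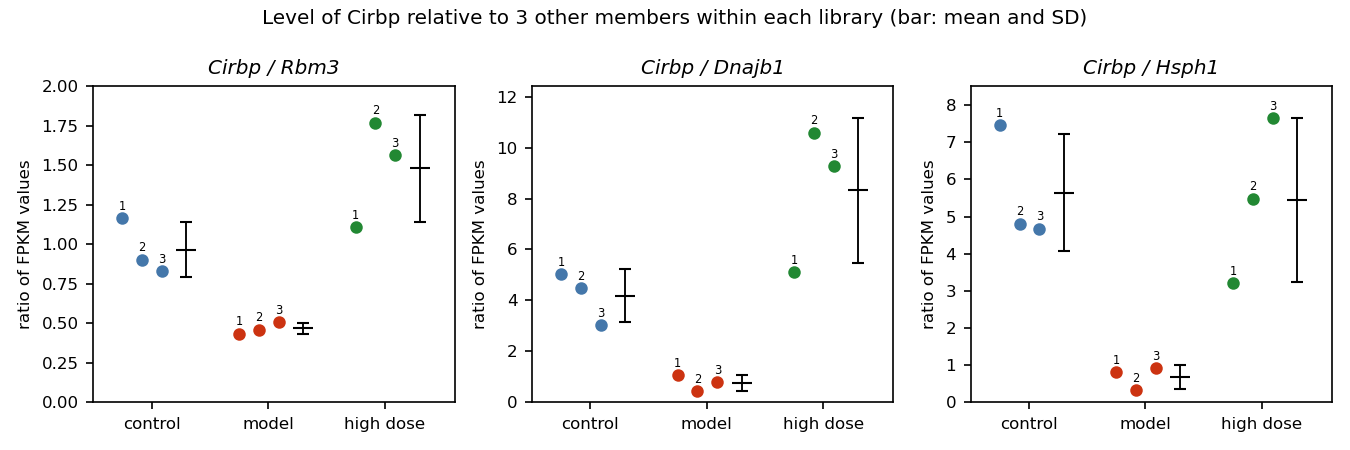
Ratio of the FPKM of Cirbp to that of Rbm3, Dnajb1 and Hsph1 in each library, by group; points are libraries labelled by replicate, bars the mean and SD of 3. In each panel the 3 model libraries lie below the other 6, with Cirbp at 0.435 to 0.509 times Rbm3 and at 0.440 to 1.07 times Dnajb1. For Dnajb1 and Hsph1 this was fixed in advance, since in every model library Cirbp was lower and they were higher than elsewhere. Cirbp was chosen for its pattern, so all 3 panels are descriptions.

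Among the heat shock genes, the 2 tested co-chaperones of HSP70 were higher in every model library than in any other. Dnajb1 (chromosome 8, 83608193 to 83612653), the J protein that delivers clients to HSP70, measured 13.8, 15.2 and 12.8 FPKM in control, 27.2, 50.03 and 27.8 in model and 13.03, 8.32 and 9.18 in high dose. Its model mean of 35.0 ± 13.04 FPKM was 2.51 times that of control and 3.44 times that of high dose. The log2 difference in limma was 1.21 ± 0.278 from control to model (SE, adjusted p = 0.688), -1.65 ± 0.278 from model to high dose (adjusted p = 0.159) and -0.44 ± 0.278 from control to high dose (adjusted p = 0.888). None of the 3 passed at an adjusted p under 0.05. The 2 lowest values were those of high dose 2 and 3, which also held heart muscle RNA. Control 1 and 2 held heart muscle RNA as well, with Dnajb1 at 13.8 and 15.2 FPKM against 12.8 in control 3. The 5 libraries low in heart muscle RNA leave 1 control and 1 high dose library, and with these the difference from control to high dose was 0.02. The part of heart muscle in the Dnajb1 values was not tested.

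Hsph1 (chromosome 5, 149614287 to 149636376), the HSP110 exchange factor of HSP70, had the largest fold between the control and model means among the tested members. It measured 9.33, 14.2 and 8.30 FPKM in control, 35.6, 66.7 and 23.9 in model and 20.8, 16.0 and 11.1 in high dose. All model libraries were above all others, and the high dose libraries overlapped with control. The model mean of 42.1 ± 22.1 FPKM was 3.96 times that of control and 2.63 times that of high dose, and model 2 was the highest library for Hsph1 as for Dnajb1. In limma the log2 difference was 1.80 ± 0.393 from control to model (SE, adjusted p = 0.688), -1.26 ± 0.393 from model to high dose (adjusted p = 0.285) and 0.54 ± 0.393 from control to high dose (adjusted p = 0.888).

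These 2 genes stood far below the constitutive HSP70 in level, and came closest to it in the model libraries. Dnajb1 was at 1.49, 2.24 and 2.28% of the FPKM of Hspa8 in control, at 4.30, 5.30 and 3.92% in model and at 1.42, 0.982 and 1.00% in high dose. The same share for Hsph1 was 1.01, 2.10 and 1.48% in control, 5.63, 7.06 and 3.37% in model and 2.26, 1.89 and 1.21% in high dose. In both, the model libraries did not overlap with the others.

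**Figure D2:**
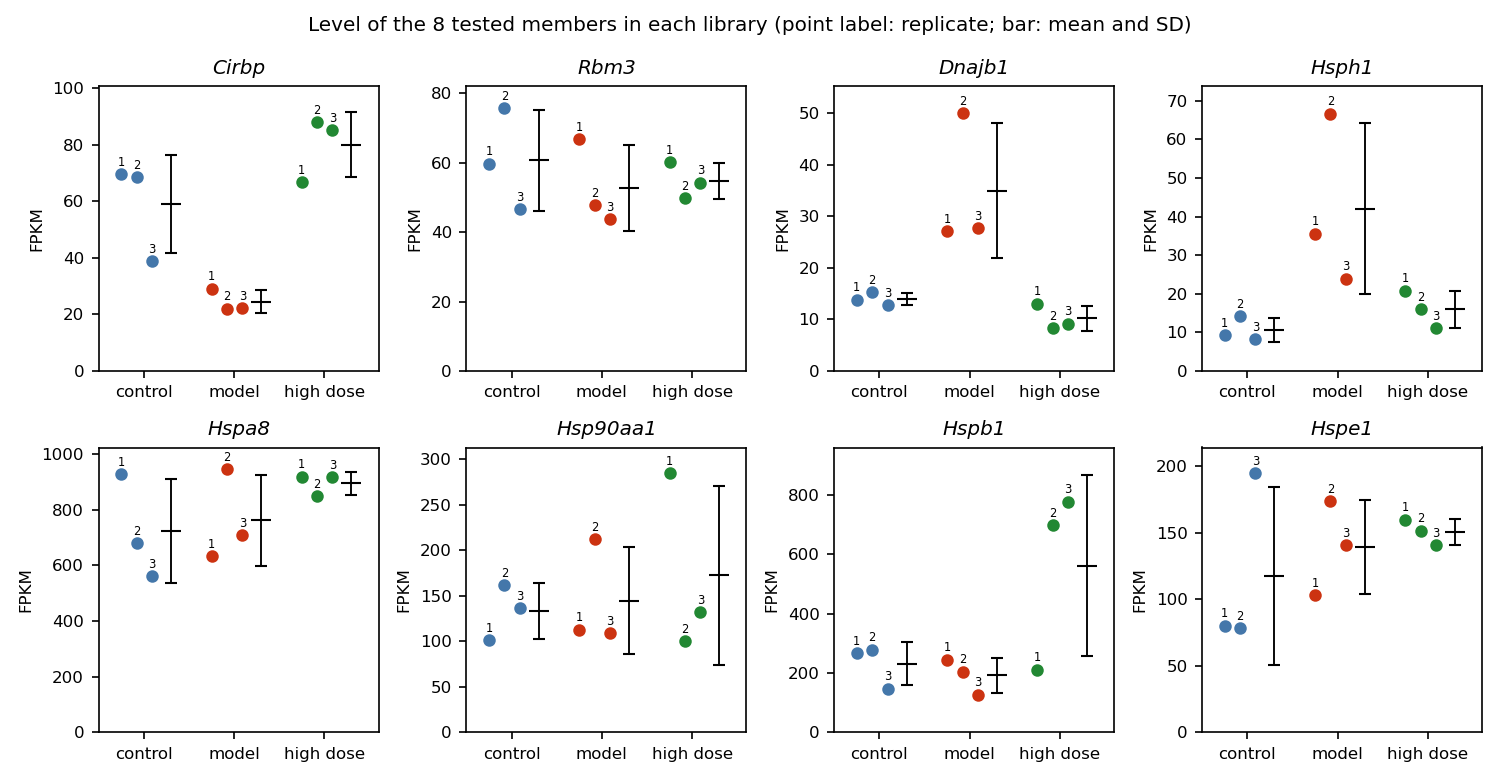
Level in FPKM of the 8 tested genes in each library, by group; points are libraries labelled by replicate, bars the mean and SD of 3. The model libraries lie apart from the other 6 for Cirbp, at 22.0 to 29.1 FPKM, Dnajb1, at 27.2 to 50.03, and Hsph1, at 23.9 to 66.7, and overlap with them for the other 5.

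Hspa1a (chromosome 17, 34969190 to 34972156) and Hspa1b (34956436 to 34959238), the strongly inducible HSP70 genes, are near-identical neighbours, each a single exon on the minus strand. They were listed at 0 to 0.538 FPKM in all libraries. Whole fragments were recovered from the steps of the FPKM values. Hspa1b gave 8, 1 and 2 fragments in control, 81, 103 and 40 in model and 4, 15 and 10 in high dose. All model libraries were above all 6 others. Hspa1a gave 7, 3 and 3 fragments in control, 48, 49 and 16 in model and 5, 0 and 18 in high dose, so that model lay above control but overlapped with high dose. The count of 0 in high dose 2 allows up to 3 fragments.

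Per 1000000 counted fragments, Hspa1b was at 0.247 ± 0.223 in control, 4.21 ± 1.72 in model and 0.655 ± 0.398 in high dose (SD, n = 3 each), and Hspa1a at 0.308 ± 0.113, 2.08 ± 0.925 and 0.509 ± 0.634. For both genes together, 24 fragments were counted in control, 337 in model and 52 in high dose. Tested with limma voom on the recovered fragments, an analysis added after seeing the data, the log2 difference of Hspa1b was 4.05 ± 1.00 from control to model (SE, adjusted p = 0.853) and -2.79 ± 0.795 from model to high dose (adjusted p = 0.335). That of Hspa1a was 2.56 ± 1.14 (adjusted p = 0.853) and -3.01 ± 1.19 (adjusted p = 0.415). For this fit a gene needed at least 10 fragments in at least 3 libraries, which both genes reached only through the model libraries. Model is the group in which they were high, so these values are a description and no support for a difference.

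**Figure D3:**
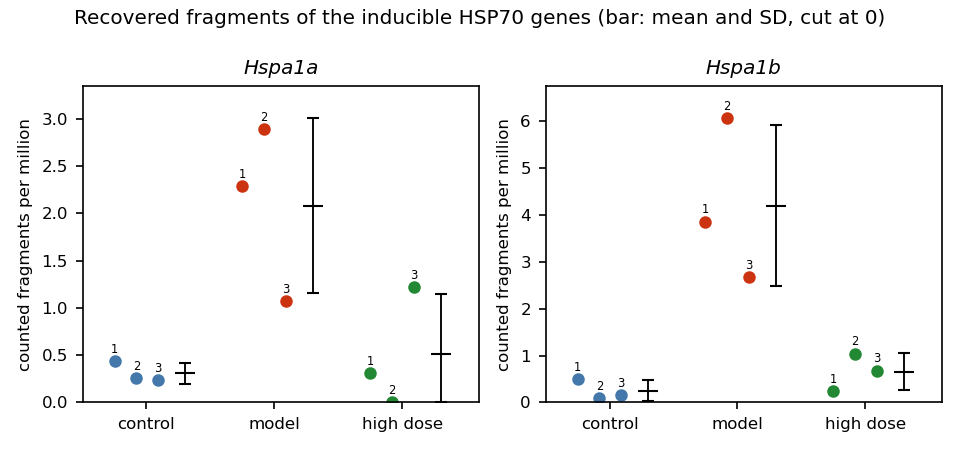
Recovered fragments of Hspa1a and Hspa1b per 1000000 counted in each library, by group; points are libraries labelled by replicate, bars the mean and SD of 3, cut at 0. For Hspa1b the model libraries lie at 2.68 to 6.07 and the other 6 at 0.0848 to 1.04, while for Hspa1a high dose 3, at 1.22, overlaps with model 3, at 1.07.

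The low FPKM of this pair cannot be set against that of other genes. The gene lengths that their FPKM values imply are 11234 bases for Hspa1a and 11286 for Hspa1b, 3.79 and 4.03 times the annotated exon, whereas for 245 other single-exon genes the median ratio was 1.01. Such ratios over 3 were found in 29 of 90 genes (32.2%) between 33 and 38 Mb of chromosome 17, against 119 of 14292 genes (0.833%) elsewhere, and the cause was not tested. Whether the recovered numbers are whole fragments or parts of fragments shared between copies cannot be told apart. Of the 100-base windows of the 2 transcripts, 47.1% of those of Hspa1a and 49.9% of those of Hspa1b occur in the other, so the division of fragments between the genes is uncertain and their sum is the firmer value.

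The remaining 4 genes overlapped between all groups. Hspa8 (chromosome 9, 40800984 to 40810087), the constitutive HSP70 that uncoats clathrin vesicles and folds new proteins, was the most abundant in every library, with Hspa1a and Hspa1b left out of that order. It measured 927, 679 and 562 FPKM in control, 632, 945 and 709 in model and 918, 847 and 917 in high dose. The log2 difference in limma was 0.09 ± 0.324 from control to model (SE, adjusted p = 0.982) and 0.25 ± 0.324 from model to high dose (adjusted p = 0.74).

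Hsp90aa1 (chromosome 12, 110690605 to 110702728), the inducible form of HSP90, which matures kinases and steroid receptors, measured 101, 162 and 137 FPKM in control, 113, 212 and 109 in model and 285, 100 and 132 in high dose. Only high dose 1 and model 2 were above 200. High dose 1 also had the highest sum of 5 nerve and neuroendocrine markers, at 2129 FPKM against 0.318 to 519 in the other 8 libraries, and the part of that tissue in the value was not tested. In limma the log2 difference was 0.07 ± 0.435 from control to model and 0.18 ± 0.435 from model to high dose (SE, adjusted p = 0.99 and 0.875). Its level was 0.183 to 0.345 times that of Hsp90ab1, the constitutive HSP90 gene, over the 9 libraries.

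Hspb1 (chromosome 5, 135887919 to 135889563), a small heat shock protein that binds unfolding proteins without ATP and is abundant in muscle, measured 266, 278 and 148 FPKM in control, 245, 205 and 127 in model and 212, 697 and 777 in high dose. Only high dose 2 and 3 were high, and high dose 1 lay among the controls and the model libraries. The log2 difference in limma was 1.38 ± 0.534 from model to high dose (SE, adjusted p = 0.35) and 1.13 ± 0.534 from control to high dose (adjusted p = 0.888). High dose 2 and 3 also held heart muscle, in which 8 markers summed to 9662 and 16215 FPKM. Control 1 and 2, at 26924 and 7300, held it as well, with Hspb1 at 266 and 278 FPKM. With only the 5 libraries low in heart muscle RNA, which leave 1 high dose library, the log2 difference from model to high dose was 0.19. The part of heart muscle in the Hspb1 values was not tested.

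Hspe1 (chromosome 1, 55088132 to 55091307), the lid of the mitochondrial chaperonin, measured 80.2, 78.2 and 194.9 FPKM in control, 103, 174 and 141 in model and 160, 152 and 141 in high dose. Control 3, the library with the most brown fat RNA, was the highest. Hspd1, the chaperonin itself, which is transcribed from the same promoter region in the other direction, was also highest there, at 261 FPKM against 49.8 to 157 elsewhere. Hspe1 stood at 0.747 to 0.907 times Hspd1 in control, 1.01 to 1.35 times in model and 1.20 to 3.05 times in high dose. The log2 difference of Hspe1 in limma was 0.34 ± 0.376 from control to model (SE, adjusted p = 0.904) and 0.14 ± 0.376 from model to high dose (adjusted p = 0.884).

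**Figure D4:**
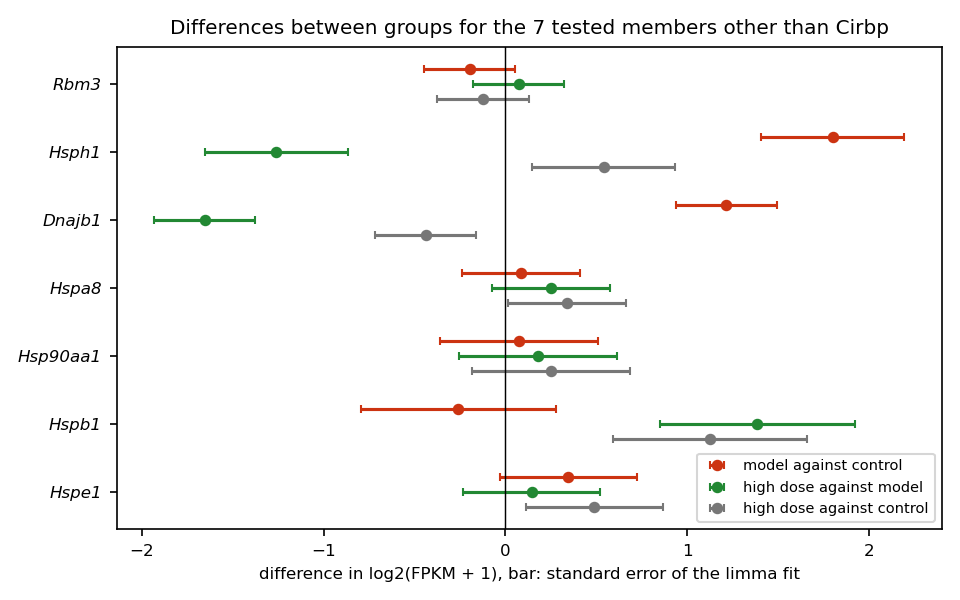
Differences between groups in log2(FPKM + 1) for the 7 tested genes other than Cirbp; points are limma estimates and bars their standard error. Hsph1 and Dnajb1 lie at 1.80 and 1.21 from control to model and at -1.26 and -1.65 from model to high dose, none of which passed at an adjusted p under 0.05.

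Across all 12895 tested genes, limma called 0% at an adjusted p under 0.05 from control to model, 0% from model to high dose and 0% from control to high dose, with 821, 1729 and 701 genes at an unadjusted p under 0.05. The members' failure to pass is thus shared by every gene. When libraries were weighted by how well they fitted, limma called 684 genes from control to model, among them Dnajb1 (log2 difference 1.45, adjusted p = 0.0437) and Hsph1 (2.10, adjusted p = 0.0467), and from model to high dose 6 genes, none of them among the 7 tested members other than Cirbp. Without high dose 3 it called 46 genes from model to high dose, none of them a member.

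Separation of groups can be read against all genes too. From control to model, Dnajb1 and Hsph1 of the 8 tested members were higher without overlap, as were 6.91% of all tested genes, and Cirbp was lower, as were 9.06%. From model to high dose, Cirbp was higher, as were 11.7%, and Dnajb1 and Hsph1 were lower, as were 10.9%. Between control and high dose all 8 overlapped, where 3.66% of genes were higher and 5.02% lower. Against all 6 other libraries at once, model was higher without overlap for the same 2 members and for 2.78% of all genes, and lower for Cirbp and for 3.91%. Cirbp was chosen for this pattern, so nothing is read from its place in these counts. The comparisons with model share its 3 libraries, and those with high dose or control likewise share theirs.

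Over the 9 libraries, the heat shock genes that were high in model ran against Cirbp. On log2(FPKM + 1), Pearson's r of Cirbp was -0.90 with Dnajb1 (Spearman's rho -0.85), -0.79 with Hspa1b (rho -0.45), -0.70 with Hspa1a (rho -0.57) and -0.67 with Hsph1 (rho -0.62). It was 0.74 with Hspb1 (rho 0.85) and 0.40 with Rbm3 (rho 0.32). The model libraries stand apart in Cirbp and the gene was chosen for that, so these are descriptions with no p. On deviations from the group means, r was -0.24 with Dnajb1, 0.09 with Hspa1b, 0.15 with Hspa1a and 0.04 with Hsph1, so most of the negative relation to Cirbp lay between the group means. With Hspb1 it was 0.75 on these deviations. With Hspe1 it was -0.94 on them, against -0.27 (rho -0.25) over the 9 libraries as they stand. Control 3, with the most brown fat RNA, was the lowest control for Cirbp and the highest library for Hspe1.

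Among 8498 tested genes with a mean of at least 5 FPKM, the 5 most like Cirbp over the 9 libraries were Phyhd1 (r 0.98), Dbp (0.98), Eid2 (0.96), Rrp1 (0.96) and Nr1d1 (0.95). Cirbp was singled out for following the clock genes in these same libraries, so the places of Dbp and Nr1d1 restate that choice. Dbp, a clock-controlled transcription factor, measured 52.2, 50.2 and 27.4 FPKM in control, 19.1, 6.48 and 5.57 in model and 48.7, 81.6 and 75.0 in high dose, and so, as in Cirbp, control 3 was the lowest control and high dose 2 the highest library. Nr1d1, the clock repressor REV-ERB alpha, measured 36.6 to 44.6 FPKM in model and 86.7 to 133.6 in the other 6 libraries. The most opposite were Aoc3 (r -0.97), Cxcl9 (-0.96), Tep1 (-0.96), Meox2 (-0.96) and Luzp1 (-0.96). Cxcl9, an interferon-induced chemokine, was at 11.7 to 18.8 FPKM in model, 2.96 to 10.8 in control and 1.61 to 5.19 in high dose.

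Among the genes most like the sum of Hspa1a and Hspa1b were Adgre1 (r 0.97), F10 (0.96), Ahsa2 (0.94) and Pcsk7 (0.94). Adgre1, which encodes the macrophage marker F4/80, was at 12.4, 27.8 and 7.80 FPKM in model, 1.74 to 1.90 in control and 1.85 to 6.96 in high dose. The sum of 6 macrophage markers, all at 1 FPKM or more in every library, was 238 to 730 FPKM in model, 54.8 to 108 in control and 80.2 to 523 in high dose. Its highest library was model 1, where Cd68 gave 396 of the 730 FPKM, and high dose 3 was second. The 6 markers did not run alike. Cd14, Mrc1 and C1qa were highest in high dose 3, at 34.9, 33.1 and 274 FPKM, and Adgre1, Cd68 and Csf1r in a model library. The high dose mean was 1.04, 0.925 and 0.829 times the model mean for Cd14, Mrc1 and C1qa. It was 0.239, 0.375 and 0.673 times for Adgre1, Cd68 and Csf1r. Adgre1, F10, Hspa1b, Dnajb1 and Hsph1 were all highest in model 2. The part of macrophages in the values of the chaperones was not tested.

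The regulators of the heat shock genes overlapped between control and model. Hsf1, the master activator, was at 17.2 ± 3.15 FPKM in control, 17.9 ± 1.75 in model and 19.1 ± 7.96 in high dose, and Hsf2 and Hsf4 were at 3.60 ± 1.41 and 5.08 ± 2.43 in control, 2.69 ± 0.105 and 2.71 ± 0.659 in model and 5.04 ± 1.34 and 8.27 ± 3.79 in high dose. All high dose libraries exceeded all model libraries for Hsf2 and Hsf4, as they did for 11.7% of all tested genes. None of the 4 genes listed, these factors and Hsbp1, a heat shock factor binding protein, passed in limma (smallest adjusted p from model to high dose 0.285, for Hsf4).

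Of 29 further cytosolic chaperones and co-chaperones 28 were tested, of which 14 were higher and 14 lower from control to model, none of them passing, with a median log2 difference of 0.00 against -0.01 over all genes. From model to high dose 13 were higher and 15 lower (median -0.04 against 0.00), and from control to high dose 15 and 13 (median 0.02 against 0.00). Ahsa2, an activator of the HSP90 ATPase, was the only one above all 6 other libraries in all 3 model libraries, at 15.4, 27.5 and 15.6 FPKM against 8.04 to 10.9. Its log2 difference in limma was 0.91 ± 0.258 from control to model (SE, adjusted p = 0.688). Stub1, the ubiquitin ligase CHIP that marks chaperone clients for breakdown, was at 60.4 to 65.9 FPKM in model and 79.6 to 101.8 in the other 6, with a log2 difference of -0.57 ± 0.19 (adjusted p = 0.712), and Dnaja2 was likewise lower in model than in all others, as were 3.91% of all tested genes, against 2.78% higher. Dnajb4, another J protein, was at 54.4 ± 16.9 FPKM in model, 29.8 ± 9.48 in control and 25.4 ± 9.60 in high dose. Model and control overlapped, with the lowest model library at 38.2 and the highest control at 39.8 FPKM. Cdc37, which brings kinases to HSP90, was lower in high dose, at 34.0 ± 5.87 FPKM, than in control, at 48.5 ± 5.503, without overlap, as were 5.02% of all tested genes (log2 difference -0.51 ± 0.197, adjusted p = 0.863). For Hspa14, the log2 difference from control to high dose was -0.34 ± 0.205 (adjusted p = 0.888).

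All 6 other small heat shock proteins were lower in model than in control (median log2 difference -1.51) and higher in high dose than in model (median 1.56), with 0 passing in limma in either. The sum of 8 heart muscle markers lay at 29.1, 7300 and 26924 FPKM in control, 43.1, 56.6 and 83.1 in model and 24.9, 9662 and 16215 in high dose, and its part in these differences was not tested. Hspb8, which works with BAG3 in clearing damaged muscle proteins, was below all other libraries in model, at 46.9, 63.8 and 52.4 FPKM. Only 1 of the 6, Hspb8, lay so, as did 3.91% of all tested genes. Hspb8 stood at 90.6 and 134.7 in control 3 and high dose 1, which were low in heart markers. Its log2 difference in limma was -1.10 ± 0.324 from control to model (SE, adjusted p = 0.688) and 1.51 ± 0.324 from model to high dose (adjusted p = 0.173). Hspb3 was at 5.03 ± 4.76 FPKM in control, 0.134 ± 0.182 in model and 5.08 ± 4.40 in high dose, and Hspb6 at 116 ± 86.8, 52.0 ± 15.0 and 261 ± 298.

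Mitochondrial chaperones numbered 8, all tested, with 4 higher and 4 lower from control to model, 2 higher and 6 lower from model to high dose, and 1 higher and 7 lower from control to high dose (medians -0.02, -0.42 and -0.50), none of them passing in limma. Control 3, with the most brown fat RNA, was the highest control for all 8: Hspa9 was at 669 FPKM there against 165 and 133 in the other controls, Dnaja3 at 140 against 26.4 and 26.6, and Grpel1 at 68.2 against 16.9 and 15.6. The part of brown fat in these differences was not tested. Grpel2, a nucleotide exchange factor, was the exception in the last comparison, at 8.41 ± 0.159 FPKM in high dose and 6.72 ± 1.39 in control without overlap, as were 3.66% of all tested genes. The margin was narrow, with the lowest high dose library at 8.288 and control 3 at 8.273 FPKM. The smallest p-values among the 8 from control to model and from model to high dose belonged to Dnaja3, Clpb and Trap1, with log2 differences of -0.61 ± 0.646 and 0.33 ± 0.526 for the first pair and -0.84 ± 0.465 and -0.85 ± 0.526 for Trap1 and Clpb in the second comparison.

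Of 12 RNA-processing genes known to respond to temperature, 7 were higher and 5 lower from control to model, and 4 were higher and 8 lower in each comparison with high dose, with none passing. Rbmx was at 14.8 ± 3.22 FPKM in control, 10.1 ± 0.447 in model and 11.2 ± 1.34 in high dose. It was lower in model than in control without overlap, as were 2 of these 12 genes and 9.06% of all tested genes. Srsf7 was at 53.8 ± 24.7, 55.0 ± 6.06 and 35.4 ± 10.2 FPKM in control, model and high dose.

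Of 18 clock genes, 8 were higher and 10 lower from control to model, 13 higher and 5 lower from model to high dose, and 14 higher and 4 lower from control to high dose, with none passing in limma. Model was below all 6 other libraries for Cry2, Nr1d1, Dbp, Tef and Ciart and above them for Nfil3, the repressor that competes with DBP for its sites, where 3.91% of all tested genes were below and 2.78% above. Nfil3 was at 8.23 ± 1.26 FPKM in model, 2.65 ± 0.605 in control and 4.79 ± 0.867 in high dose. Ciart, an inhibitor of the clock activators, was at 1.66 ± 0.420, 4.68 ± 1.22 and 9.83 ± 0.712 FPKM in the same order, with the smallest adjusted p of any gene from model to high dose (0.0883). Bhlhe40 was 0.96 ± 0.251 higher on the log2 scale in high dose than in control (adjusted p = 0.802). The hour of collection was not given, and its part in the values of Cirbp and of these genes was not tested.

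Immediate early genes, which respond within minutes to stress and handling, numbered 14, of which 6 were higher and 8 lower both from control to model and from model to high dose, and 2 higher and 12 lower from control to high dose, none of them passing. Jun was above all other libraries in model, at 103 ± 8.39 FPKM against 66.7 ± 31.2 in control and 43.3 ± 14.5 in high dose. Egr1 was below them, at 31.2 ± 6.60 against 136 ± 108 and 74.3 ± 24.5. Of all tested genes, 2.78% lay above all other libraries in model and 3.91% below, and of the 14 listed here 1 lay on each side. Fos was at 94.9 ± 77.6 in control, 30.4 ± 2.78 in model and 21.3 ± 12.8 in high dose, Ier2 at 59.5 ± 22.4, 28.6 ± 5.66 and 39.6 ± 17.1, and Dusp1 at 139 ± 31.3, 163 ± 38.4 and 85.5 ± 30.5.

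Libraries held from 11799910 counted fragments in control 2 to 20979791 in model 1. Apoe, the gene disrupted in the ApoE-/- line, was at 340 to 1006 FPKM in control and 18.9 to 93.7 in the 6 ApoE-/- libraries, lower in each of these 6 than in any control. Smooth muscle markers were present in every library, with sums of 488 to 4483 FPKM, lowest in high dose 1, and endothelial markers summed to 217 to 483. RNA of neighbouring tissues differed between libraries of a group: heart muscle in control 1 and 2 and high dose 2 and 3, airway epithelium in control 2 and high dose 2, at 8262 and 21410 FPKM, and skeletal muscle in high dose 2, at 8857. Other markers set model apart from all 6 other libraries. In model, 6 red cell markers summed to 21374 to 64113 FPKM, against 2693.5 to 21259 elsewhere. The 5 nerve and neuroendocrine markers summed to 0.318 to 2.59 in model, against 6.97 to 2129 elsewhere. The part of either in the values of the members was not tested.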

How the data were processed

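Messenger RNA of aortic arch was purified and sequenced after preparation with an NEBNext Ultra kit, per the labels' protocols. The authors deposited 1 table of FPKM values for 9 libraries. The submitters' processing notes name the builds GRCm38.p5 and mm10, while the aligner, counter and strand setting were not given in the sources used here. These values add up within a library, so a few abundant genes can lower all others. Table columns were matched to sample titles by name and replicate number, and the columns named AS were read as model, the one group with AS in its description.

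The tests used limma 3.58.1 (R 4.3.3) with log2(FPKM + 1) as input, all 9 libraries in 1 fit with a trend, two-sided, with Benjamini-Hochberg adjustment over 12895 genes. Fold changes on that scale understate those of low genes. The script was tested on simulated data. FPKM values came out as whole fragments for 17397 of 17398 genes with values above 0 in 3 or more libraries. The tolerance was 0.02 of a fragment. Limma voom was run on the 15137 of these with at least 10 fragments in at least 3 libraries. It called 0, 0 and 0 genes in the 3 comparisons, with 819, 1727 and 698 at an unadjusted p under 0.05. Gene positions and exons are those of GENCODE M21 on GRCm38. Python 3.11.15 with pandas 2.3.3 and scipy 1.17.1 was used for the rest.

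The members and the 7 pathway lists and 10 marker lists were chosen with earlier results of these data known. Named genes are the 10 members, Apoe, the 5 genes most like and most opposite to Cirbp and most like Hspa1a and Hspa1b together (leaving out predicted genes and clone names), and in each list and comparison the 2 of smallest p. A pair of genes so selected is not reported here, and the counts over lists hold every tested member. Others named were chosen after their values were seen. Alternatives were array weights, quantile and median-ratio scaling, a pseudocount of 0.1, a minimum mean of 5 FPKM or no filter, only the groups compared, a replicate block, each library left out, and, added after seeing the data, recovered fragments and only the 5 libraries low in heart muscle genes.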

Additional observations from a re-analysis of the deposited data

How the results depend on the processing

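Each comparison was recomputed under the alternatives, and of 130 values 119 from control to model, 122 from model to high dose and 125 from control to high dose kept their direction and their side of the threshold. Cirbp, Dnajb1 and Hsph1 kept their direction from control to model and from model to high dose under all 16 alternatives each, the 5 libraries low in heart muscle genes included. For these genes every model library lay apart from all others, so leaving out libraries could not have reversed the sign. Their kept direction is therefore no added support. Array weights called 684 genes from control to model and 6 from model to high dose. A fit of only the groups compared called 1 gene from model to high dose, and leaving out 1 library called 0 to 46 there, the latter without high dose 3. With only the 5 libraries low in heart muscle genes, which leave 1 control and 1 high dose library assumed to vary like the model libraries, 591 genes were called from model to high dose and 229 from control to high dose, none of them a member. The cause was not tested. With the replicate block, limma called 0 genes in each comparison. Same-numbered libraries correlated from -0.522 to 0.306 in their deviations from group means, and 1 of 9 libraries was closest to its own number. No pairing by number was seen. Whether they share more than a number cannot be told from these values, in which RNA of neighbouring tissues differs too.

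Members whose difference was small changed sign, none of them past the threshold. With the 5 libraries Cirbp was at -0.66 against -1.20 from control to model, and stood at 0.77 against 0.47 from control to high dose. Hsph1 was at 1.23 against 0.54 in the latter comparison, and Hspb1 at 0.19 against 1.38 from model to high dose and 0.52 against 1.13 from control to high dose. With the same libraries, the log2 difference from control to model was 0.15 for Rbm3, 0.33 for Hspb1 and -0.51 for Hspe1, and from control to high dose 0.36 for Rbm3, 0.023 for Dnajb1 and -0.28 for Hspe1. Quantile scaling gave -0.042 for Rbm3 and -0.010 for Hspa8 from model to high dose, and array weights -0.19 for Hsp90aa1 and -0.082 for Hspe1. With 1 library left out, the range from control to model was -0.24 to 0.24 for Hsp90aa1, -0.079 to 0.28 for Hspa8 and -0.55 to 0.012 for Hspb1. From model to high dose it was -0.26 to 0.49 for Hsp90aa1, -0.054 to 0.32 for Hspe1 and -0.049 to 0.25 for Rbm3, and from control to high dose -0.18 to 0.57 for Hsp90aa1 and -0.30 to 0.045 for Rbm3. The correlation of Cirbp over libraries was -0.11 with Rbm3 and 0.071 with Hsp90aa1 without model 2 and 3, and on deviations from group means 0.15 with Hspa1a, 0.091 with Hspa1b and 0.039 with Hsph1. Depth limits Hspa1a and Hspa1b most, at 0 to 103 fragments a library.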
